A study of Mus musculus with 31 samples.

Results

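Microglia, the resident macrophages of the brain, were followed through 34 genes that mark them, among 52636 genes measured in caudate putamen (CPu). The genes were taken as a list of symbols of microglial markers, with no expression value in the rule, and all 34 were found in the table. Each value is a transcript abundance in TPM, which corrects for gene length and brings every mouse to about the same total, so levels of different genes can be set side by side. CPu is the dorsal striatum, and it was sampled from the right hemisphere as a frozen punch from each of 31 mice labelled female and aged 8 to 11 weeks. Vehicle, a saline injection, was given to 8 wild type (WT) mice and 7 Brd1+/- mice, and imipramine (IMN), a tricyclic antidepressant, was given at 10 mg/kg to 8 WT and 8 Brd1+/- mice. Brd1+/- mice lack 1 copy of Brd1, which encodes a chromatin-binding scaffold protein of histone acetyltransferase complexes. The deletion is constitutive, so it was present in every cell type and through development, and the strain of all mice is labelled C57BL/6NTac-Brd1. The comparisons asked how CPu expression differed with Brd1 dose under vehicle, and how it differed after IMN in each genotype.

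Microglia depend on CSF1R, the receptor for CSF1 and IL-34, and on the transcription factor PU.1, encoded by Spi1. In the healthy brain they survey their surroundings through purinergic receptors such as P2RY12, and neurons hold them in check through CX3CL1, the ligand of the receptor encoded by Cx3cr1. They are a main source of the complement protein C1q, built from the chains C1qa, C1qb and C1qc, and they clear debris through receptors such as TREM2, which signals through the adaptor TYROBP. A bulk punch holds all cells of the tissue, and fewer microglia and less RNA per microglial cell cannot be told apart in it.

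Promoters are shown for the genes that were called in a comparison below and have a promoter entry (Trem2, P2ry13, Olfml3 and Hpgds), and for Inpp5d and C1qc, which with Hpgds hold the longer of 2 purine-rich elements of the kind that PU.1 binds. Sequences are from RefSeq on GRCm38.p6, and entries were found for 26 of the 34 genes. Each line is read along the strand of the gene, upstream of its RefSeq start, and capitals mark GAGGAA or its reverse complement TTCCTC. Olfml3 holds neither, and the bases next to its start are shown. Trem2 (chr17:48346321-48346400, plus strand), P2ry13 (chr3:59210885-59210970, minus strand), Olfml3 (chr3:103738002-103738081, minus strand), Hpgds (chr6:65144734-65144819, minus strand), Inpp5d (chr1:87620252-87620311, plus strand) and C1qc (chr4:136893062-136893147, minus strand) read as follows.
Trem2: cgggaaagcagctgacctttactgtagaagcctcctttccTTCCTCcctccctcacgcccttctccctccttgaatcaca
P2ry13: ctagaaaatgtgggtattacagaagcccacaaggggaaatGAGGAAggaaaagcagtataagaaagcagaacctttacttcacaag
Olfml3: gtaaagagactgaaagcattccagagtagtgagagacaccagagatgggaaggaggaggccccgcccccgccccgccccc
Hpgds: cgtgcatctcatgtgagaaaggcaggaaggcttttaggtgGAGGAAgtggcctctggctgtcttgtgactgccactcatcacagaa
Inpp5d: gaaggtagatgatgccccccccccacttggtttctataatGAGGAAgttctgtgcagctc
C1qc: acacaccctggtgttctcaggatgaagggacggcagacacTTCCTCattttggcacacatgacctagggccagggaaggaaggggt

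On either strand of the 250 bases before the start, GAGGAA was found in 15 of the 26 promoters (57.7%), against 6986 of the 27025 promoters of all genes (25.9%). The longer element GAGGAAGT, which contains GAGGAA, was found in 3 of the 26 (11.5%), those of C1qc, Inpp5d and Hpgds, against 755 of 27025 (2.79%). These are matches of letters in a window and not measured binding. No entry was found for Unc93b1, Gpr34, Selplg, Spi1, Tmem119, Csf1r, C1qa and Tyrobp.

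Microglia genes were readily measured in the punches. All 34 genes were detected, none was under 0.1 TPM in every mouse of a group, and all passed the filter on low values in each comparison. The sum of the 34 genes had a lowest, median and highest value of 525.8, 685.0 and 804.5 TPM in vehicle administered WT mice, and of 682.8, 712.5 and 921.0 TPM in Brd1+/- mice given vehicle. After IMN it was 688.8, 728.8 and 750.9 TPM for WT and 640.2, 706.4 and 757.5 TPM for Brd1+/-. The ranges of the 4 groups overlapped, the lowest sum was that of a WT vehicle mouse and the highest that of a Brd1+/- vehicle mouse.

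Cortical neuron markers were high in 6 of the 8 WT vehicle mice, and single libraries also stood apart from their groups. Both bear on every comparison with vehicle administered WT mice. Brd1 itself had 22.5 ± 2.97 TPM in WT and 13.4 ± 2.02 TPM in Brd1+/- vehicle mice, and 19.9 ± 2.67 and 12.8 ± 1.04 TPM (SD) after IMN, as the genotype labels require. Markers of cortical neurons had a mean log2(TPM + 1) of 4.76 to 5.98 in 6 of the 8 WT vehicle mice and of 0.90 and 1.01 in mice 6 and 8, against 1.33 to 3.32 in Brd1+/- vehicle, 0.96 to 4.92 in WT IMN and 1.08 to 3.79 in Brd1+/- IMN mice. WT vehicle mouse 2 had the lowest striatal neuron marker mean, 3.598, where all other mice of the 4 groups lay between 6.32 and 9.46, and it also had the lowest microglia sum. WT vehicle mouse 7 had 26.8 TPM of Y-linked genes in sum, against at most 0.188 TPM in any other mouse, which goes against the sex on its label. The part of these differences in tissue and label in the results was not tested beyond the fits that leave the mice out or take the cortical markers as a covariate.

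**Figure D1:**
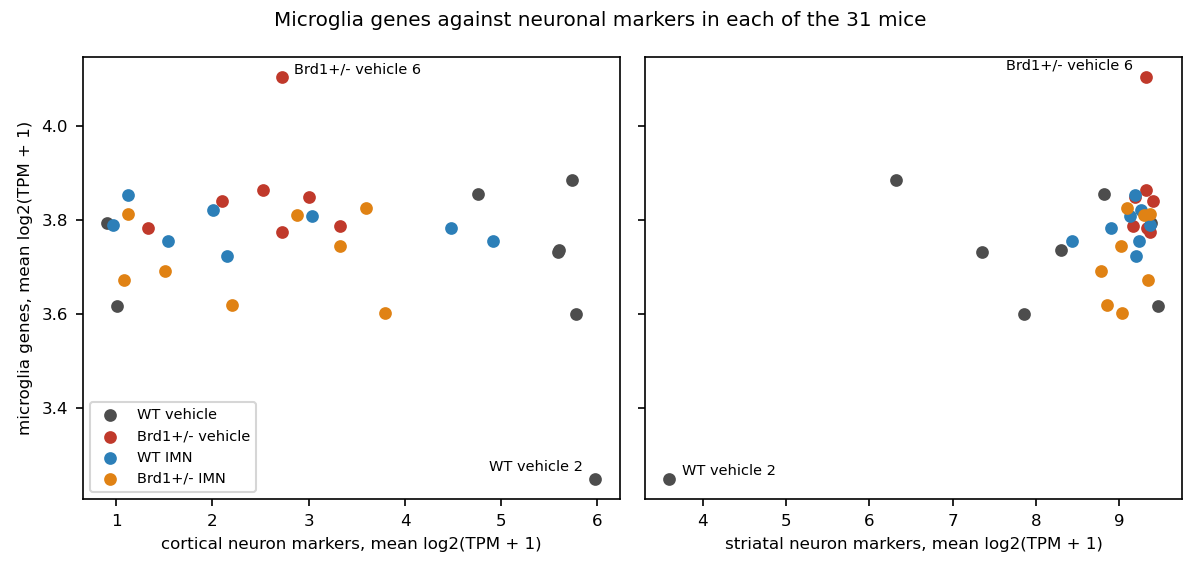
Mean log2(TPM + 1) of the 34 microglia genes (vertical axis) against the mean of 10 cortical neuron markers (left) and of 10 striatal neuron markers (right), each point 1 of 31 mice, colored by group. WT vehicle mouse 2 sits alone at low striatal and low microglia values (3.598 and 3.25), and Brd1+/- vehicle mouse 6 holds the highest microglia value (4.10).

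The surface receptors covered a wide range of levels. P2ry12, the ADP receptor that steers microglial processes, had a mean of 30.95 TPM over all mice, with group means from 28.4 to 33.4 TPM. Csf1r had 29.0 TPM (group means from 26.8 to 31.1), Cx3cr1 17.6 TPM (16.6 to 18.6) and Tmem119, a membrane protein that separates microglia from other macrophages, 14.2 TPM (13.7 to 15.2). Selplg, which encodes the selectin ligand PSGL-1, was higher at 33.6 TPM (30.97 to 36.3). Fcrls, an Fc receptor-like gene, had 12.4 TPM (11.9 to 13.03) and Siglech, a sialic acid-binding lectin, 10.3 TPM (9.03 to 11.6). The phagocytic receptor Trem2 had 9.84 TPM (6.67 to 11.3), the lysophosphatidylserine receptor Gpr34 8.72 TPM (7.33 to 10.4), and P2ry13, a second ADP receptor, 7.50 TPM (6.70 to 8.52). Cd53, a tetraspanin, had 6.39 TPM (5.88 to 7.19) and the integrin Itgam (CD11b) 2.94 TPM (2.57 to 3.51). Ptprc, which encodes CD45 and is low on microglia compared with blood leukocytes, was near the floor of the receptors at 0.59 TPM (0.53 to 0.68).

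The highest levels were those of the C1q chains and of 2 proteases. C1qb had 79.0 TPM (group means from 72.7 to 82.4), C1qa 70.8 TPM (65.9 to 72.9) and C1qc 58.3 TPM (53.5 to 61.1), so the 3 chains of 1 protein lay close together. The cysteine proteases Lgmn and Ctss had 65.9 TPM (59.3 to 77.7) and 57.0 TPM (52.6 to 61.1). The lysosomal membrane genes Laptm5 and Cd68 had 31.4 TPM (29.6 to 34.3) and 25.996 TPM (22.2 to 28.3). Unc93b1, which carries Toll-like receptors to endosomes, had 12.1 TPM (11.8 to 12.4) and the pore-forming gene Mpeg1 9.09 TPM (8.46 to 10.5). Of the remaining secreted and enzyme genes, Ly86, a partner of Toll-like receptor proteins, had 13.02 TPM (12.2 to 14.5), Olfml3, an extracellular matrix protein, 7.77 TPM (6.97 to 8.56) and Hpgds, the prostaglandin D synthase, 3.70 TPM (2.85 to 4.52).

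Adaptors and enzymes ranged from 4.96 to 31.7 TPM. Of the immunoreceptor adaptors, Tyrobp had 31.7 TPM (30.2 to 32.6) and Fcer1g 24.7 TPM (23.2 to 25.8). Inpp5d, the lipid phosphatase SHIP1 that restrains signaling downstream of TREM2, had 8.85 TPM (7.65 to 10.6), Aif1, the calcium-binding protein IBA1, 7.89 TPM (7.15 to 9.22), and Cyth4 4.96 TPM (4.64 to 5.45). The transcription factors ranged from 0.33 to 6.96 TPM. Sall1, required for microglial identity, had 6.96 TPM (6.51 to 7.61), Irf8 4.21 TPM (3.78 to 4.85), Spi1 3.15 TPM (2.92 to 3.40) and Runx1 0.33 TPM (0.26 to 0.38).

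Levels of the C1q chains followed one another from mouse to mouse. Their genes are neighbors on chromosome 4 (GRCm38; C1qb at chr4:136880129-136886187, C1qc at chr4:136889804-136893065, C1qa at chr4:136895917-136898803, all on the minus strand) and overlap no other annotated gene. The ratio of C1qb to C1qa was 1.11 ± 0.08 in WT vehicle, 1.10 ± 0.11 in Brd1+/- vehicle, 1.15 ± 0.08 in WT IMN and 1.11 ± 0.07 in Brd1+/- IMN mice (SD). Over 31 mice Pearson's r was 0.808 for C1qa with C1qb, 0.862 for C1qa with C1qc and 0.872 for C1qb with C1qc, and Spearman's rho was 0.718, 0.756 and 0.835. Each had a permutation p of 1e-05, the smallest that 100000 permutations can give, and an adjusted p of 1e-05 over the 3 pairs (two-sided permutation test). Without the 2 mice farthest from the median, r was 0.724, 0.747 and 0.797. Within the groups r ranged from 0.684 to 0.994 for C1qb with C1qc, but in WT IMN mice, whose levels varied least, it was 0.172 for C1qa with C1qb and 0.366 for C1qa with C1qc.

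Not all members moved together. Of the 561 pairs among the 34 genes, 508 had a positive correlation over the 31 mice, with a median r of 0.309, and without WT vehicle mouse 2 these were 428 pairs and a median of 0.191. The mice share library preparation and the fixed TPM sum, so these values are a description. Csf1r and Selplg (r = 0.84 each), Ctss (0.82), and C1qa and C1qc (0.81 each) were most like the mean of the other 33 members. Hpgds (0.09), Lgmn (0.11), Itgam (0.21) and Ptprc (0.22) were least like it. The order depends on WT vehicle mouse 2: without it C1qa (0.80), C1qc (0.76) and Csf1r (0.74) were most like the mean, Hpgds (-0.16), Ptprc (-0.03), P2ry13 (0.02, from 0.45) and Siglech (0.04, from 0.28) were least like it, and Lgmn had 0.33.

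The Brd1+/- vehicle against WT vehicle comparison found 1 microglia gene with a higher level, Trem2. In WT vehicle mice Trem2 had a lowest, median and highest value of 2.99, 6.07 and 11.5 TPM, and in Brd1+/- vehicle mice of 8.03, 11.5 and 14.7 TPM. The ranges overlapped, and 7 of 7 Brd1+/- mice lay above the WT median. The log2 fold change was 0.76 ± 0.22 (SE), or 1.69-fold on the log2(TPM + 1) scale, with p = 0.00343 and an adjusted p of 0.0559 by limma, and the two-sided exact permutation test gave p = 0.00684. Trem2 overlaps no other annotated gene (chr17:48346401-48354147, plus strand).

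Of the 34 genes, 1 was called higher at p under 0.01, against 1.47% of the 23200 genes tested, 0 were called lower, against 12.1%, and 0 passed an FDR of 5%, against 0%. By limma 8 of the 34 had an unadjusted p under 0.05, against 30.9% of all genes. Without WT vehicle mouse 6 the genes passing the FDR numbered 4563, 3 of them members, and without WT vehicle mouse 8 they numbered 5482, 2 of them members. Gpr34 (10.4 against 7.33 TPM, log2 fold change 0.48 ± 0.17, adjusted p = 0.0786, exact permutation p = 0.00917) and the protease gene Lgmn (59.3 against 77.7 TPM, -0.35 ± 0.13, adjusted p = 0.098) came next. Lgmn was called lower with sample quality weights (-0.41, adjusted p = 0.00534), with all 4 groups in one fit (adjusted p = 0.0297), and without WT vehicle mouse 6 or 8 (-0.43 without mouse 8, adjusted p = 0.0197, limma), and had -0.07 (adjusted p = 0.827) with the cortical covariate. Cd68 (0.36 ± 0.15, adjusted p = 0.117) and Csf1r (0.22 ± 0.11, adjusted p = 0.167) did not pass. The same holds for P2ry12 (0.26 ± 0.14, adjusted p = 0.223), Aif1 (0.21 ± 0.11, adjusted p = 0.21), C1qa (0.15 ± 0.09, adjusted p = 0.288), C1qb (0.13 ± 0.11, adjusted p = 0.399) and C1qc (0.15 ± 0.12, adjusted p = 0.405). Without Brd1+/- vehicle mouse 6, which had the highest microglia sum, C1qb had 0.04 (adjusted p = 0.751) and C1qc 0.06 (adjusted p = 0.711). Tyrobp (0.08 ± 0.11, adjusted p = 0.634), Tmem119 (0.05 ± 0.09, adjusted p = 0.735), Spi1 (0.03 ± 0.19, adjusted p = 0.922) and Cx3cr1 (0.01 ± 0.27, adjusted p = 0.987) had smaller differences still. The value of Cx3cr1 rests on Brd1+/- vehicle mouse 5, and without that mouse it was 0.30 (adjusted p = 0.171, limma). The annotated span of Cx3cr1 overlaps 9 other genes, and Gm33858 on the opposite strand overlaps its exons. The part of that overlap was not tested.

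Most members had a small positive difference where most genes had a negative one. The median log2 fold change of the 34 genes was 0.17, against -0.13 over all genes tested, and 31 of 34 (91.2%) were positive, against 27.2% of all genes. Endothelial markers were mostly positive too, 9 of 10 with a median of 0.095. Astrocyte markers (1 of 10 positive, median -0.12) and oligodendrocyte markers (0 of 10, -0.35) were not. By role, 13 of 13 surface receptors, 5 of 5 adaptors and enzymes, 3 of 3 C1q chains and 3 of 3 secreted genes were positive, with medians of 0.19, 0.14, 0.15 and 0.26. Of the lysosomal genes 4 of 6 were positive, from -0.35 (Lgmn) to 0.36 (Cd68), and 3 of 4 transcription factors were, with a median of 0.02. When TPM were rescaled by median of ratios, which brought the median of all genes to 0.00, the median of the 34 genes was 0.35, with 14 called higher, against 4.01% of all genes under that scaling, and 0 lower, against 5.19%. Trem2 did not pass once the cortical marker mean was a covariate (0.61 ± 0.25, adjusted p = 0.501) or without WT vehicle mice 2 and 7 (0.66 ± 0.24, adjusted p = 0.165, limma), where the median of the 34 was 0.10 and Gpr34 alone was called.

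**Figure D2:**
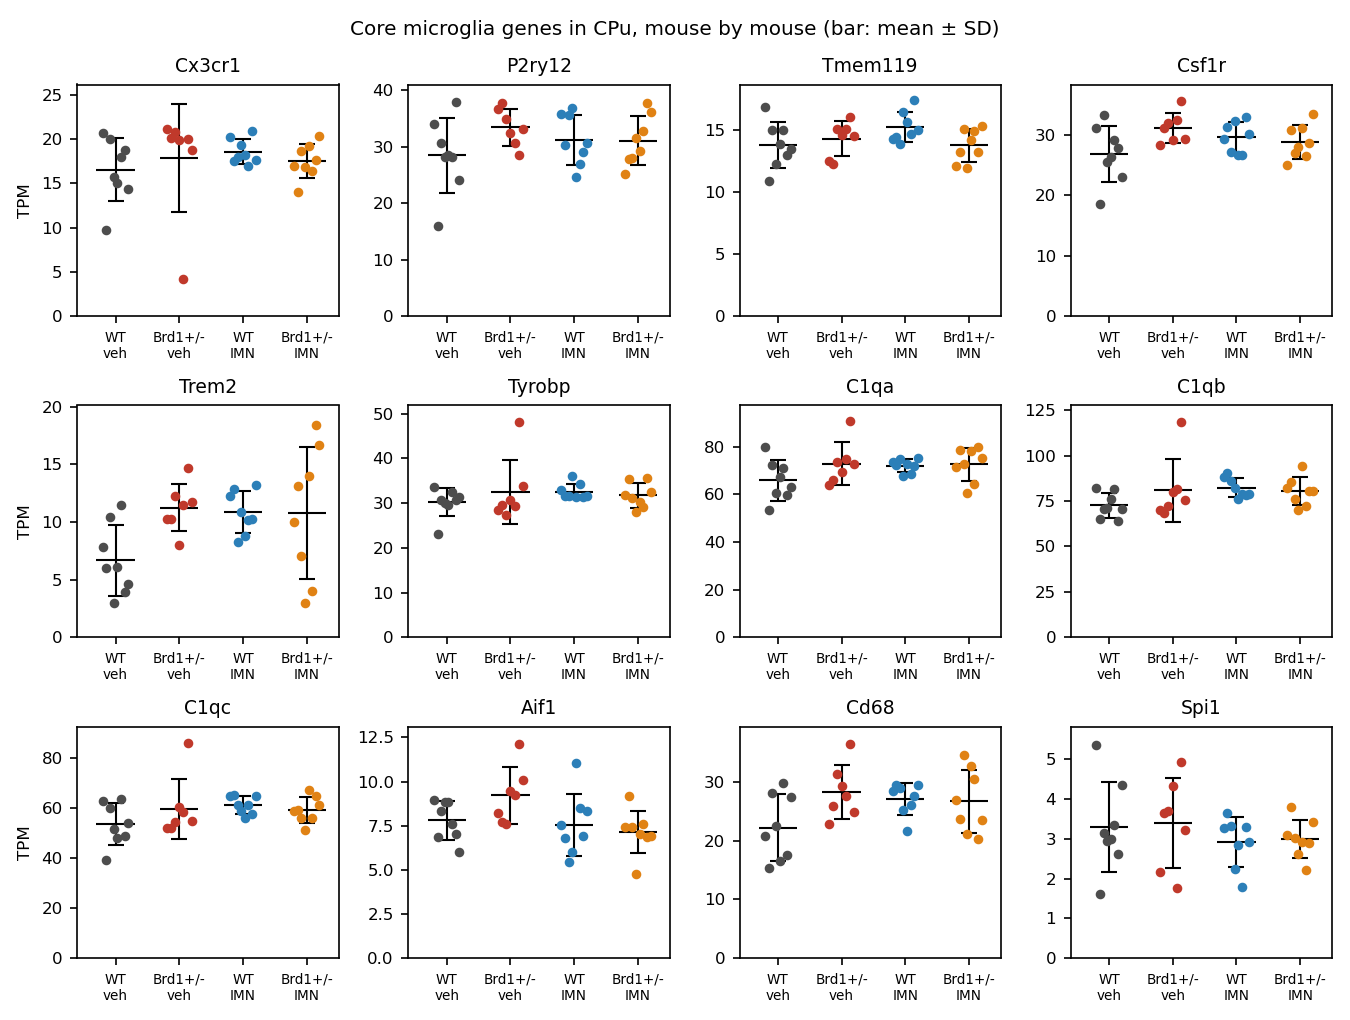
TPM of 12 core microglia genes (vertical axes, each from 0) in each of 31 mice by group (veh, vehicle), with bars for the mean and SD. Trem2 lies at 8.03 TPM or more in every Brd1+/- vehicle mouse and reaches down to 2.99 TPM in WT vehicle mice, while 1 Brd1+/- vehicle mouse is far below the rest in Cx3cr1 (4.19 TPM).

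Under IMN no member was called between the genotypes. The Brd1+/- IMN against WT IMN comparison called 0 of 34 members higher at p under 0.01, against 0.189% of the 23339 genes tested, 0 lower, against 0.514%, and 0 at an FDR of 5%, against 0.00428%. By limma 3 members had an unadjusted p under 0.05, against 3.92% of all genes, and all 3 had lower values in Brd1+/- mice. Under other settings 1 member was called lower, P2ry13, when genes were not filtered on low TPM, when the prior variance had no trend, and with sample quality weights.

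P2ry13 had a lowest, median and highest value of 6.92, 7.87 and 9.39 TPM in WT IMN and of 6.23, 6.86 and 7.43 TPM in Brd1+/- IMN mice. The ranges overlapped, and 8 of 8 Brd1+/- mice lay below the WT median. Its log2 fold change was -0.19 ± 0.07 (p = 0.0154, adjusted p = 0.998, limma), and the two-sided exact permutation test of this single gene gave p = 0.00264. Inpp5d (8.04 against 10.6 TPM, -0.38 ± 0.15, adjusted p = 0.998) and Hpgds (2.85 against 4.02 TPM, -0.35 ± 0.17, adjusted p = 0.998) followed.

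Core genes had differences of at most 0.18 in size here, and none passed (adjusted p from 0.998 to 1, limma). The largest were those of Trem2 (-0.18 ± 0.28), Tmem119 (-0.14 ± 0.07) and Cx3cr1 (-0.08 ± 0.07). Aif1 had -0.06 ± 0.13, C1qc -0.05 ± 0.06, C1qb -0.04 ± 0.06, Tyrobp -0.04 ± 0.06, Cd68 -0.04 ± 0.11 and Csf1r -0.04 ± 0.07. P2ry12 had -0.01 ± 0.10, C1qa 0.01 ± 0.06 and Spi1 0.04 ± 0.11. Median-of-ratios or quantile scaling turned the direction of P2ry12, Csf1r, Tyrobp, C1qb, C1qc and Cd68. The median of the 34 was -0.04, against -0.03 over all genes, and 5 were positive (14.7%), against 36.7% of all genes. With median-of-ratios scaling 16 were positive and 18 negative.

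The WT IMN against WT vehicle comparison uses the same WT vehicle mice as the first one, so the 2 are not independent. Trem2 was again the member called, with a lowest, median and highest value of 8.23, 10.6 and 13.2 TPM after IMN. All 8 IMN mice lay above the vehicle median of 6.07 TPM, and the ranges overlapped. Its log2 fold change was 0.71 ± 0.21 (1.64-fold, p = 0.00323, adjusted p = 0.141, limma; exact permutation p = 0.00637). Of the 34 genes 1 was called higher, against 1.35% of the 23579 genes tested, 0 lower, against 5.6%, and 0 at an FDR of 5%, against 0.00424%. By limma 8 of the 34 had an unadjusted p under 0.05, against 23.1% of all genes. Without WT vehicle mouse 6 the genes passing the FDR numbered 1176, 1 of them a member, and without WT vehicle mouse 8 they numbered 2459, 0 of them members.

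After Trem2, C1qb had the smallest p. It had a lowest, median and highest value of 63.8, 71.0 and 82.4 TPM in WT vehicle and of 76.2, 80.6 and 90.3 TPM in WT IMN mice, with 8 of 8 IMN mice above the vehicle median (0.18 ± 0.06, adjusted p = 0.148, limma). C1qc (61.1 against 53.5 TPM, 0.20 ± 0.09, adjusted p = 0.184) and C1qa (72.1 against 65.9 TPM, 0.14 ± 0.07, adjusted p = 0.264) had differences of like size. None of the C1q chains passed p under 0.01 in the limma fit (C1qb had p = 0.0123), while the two-sided exact permutation test of C1qb alone gave p = 0.00824. By limma C1qb was called with no filter on low TPM (adjusted p = 0.198), with sample quality weights (0.21, adjusted p = 0.0206), under both scalings, and without WT vehicle mouse 1 or 6 or WT IMN mouse 5. Inpp5d (10.6 against 7.65 TPM, 0.47 ± 0.20, adjusted p = 0.174) had the next largest difference after Trem2. Selplg (36.3 against 30.97 TPM, 0.24 ± 0.09, adjusted p = 0.159, exact permutation p = 0.0087) and Cd68 (27.1 against 22.2 TPM, 0.31 ± 0.13, adjusted p = 0.182, limma) also had unadjusted p under 0.05. Selplg was called under both scalings, with sample quality weights and without WT vehicle mouse 1. With all 4 groups in one fit Selplg was the only member called, where 2.49% of all genes were called higher.

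The other core genes did not pass in WT mice after IMN. They were Tmem119 (0.14 ± 0.08, adjusted p = 0.317), Tyrobp (0.11 ± 0.07, adjusted p = 0.341), Cx3cr1 (0.19 ± 0.12, adjusted p = 0.355), Csf1r (0.15 ± 0.10, adjusted p = 0.382), P2ry12 (0.15 ± 0.14, adjusted p = 0.529), Spi1 (-0.11 ± 0.16, adjusted p = 0.723) and Aif1 (-0.05 ± 0.12, adjusted p = 0.823). The median of the 34 genes was 0.11, against -0.08 over all genes, with 23 positive (67.6%, against 32.5%). Without WT vehicle mouse 2 the median of the 34 was 0.05, against -0.08 over all genes, with 20 positive and 14 negative. All 4 transcription factors were negative, with a median of -0.10, 5 of 6 lysosomal genes were positive, and 10 of 13 receptors were positive, with a median of 0.15. Median-of-ratios scaling gave a median of 0.23 and 9 members called higher, against 2.87% of all genes under it. Trem2 did not pass with cortical marker levels as a covariate (0.61 ± 0.23, adjusted p = 0.683), without WT vehicle mice 2 and 7 (0.62 ± 0.22, adjusted p = 0.36) or with all 4 groups in one limma fit (0.71, adjusted p = 0.0786).

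In Brd1+/- mice IMN went with lower levels of 2 members, Hpgds and P2ry13. Hpgds had a lowest, median and highest value of 2.76, 4.74 and 6.48 TPM under vehicle and of 2.17, 2.56 and 3.94 TPM after IMN. The ranges overlapped, with 8 of 8 IMN mice below the vehicle median. Hpgds fell by 0.51 ± 0.15 on the log2 scale (p = 0.00285, adjusted p = 0.411, limma; exact permutation p = 0.00684). The gene overlaps the annotated gene Gm17147 on the other strand.

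P2ry13 had a lowest, median and highest value of 7.42, 8.14 and 10.7 TPM in Brd1+/- vehicle mice. After IMN 8 of 8 mice lay below that median, and the highest of them (7.43 TPM) was just inside the vehicle range. P2ry13 fell by 0.26 ± 0.08 (p = 0.005, adjusted p = 0.476, limma), and the exact permutation test gave p = 0.000311. P2ry13 and its neighbor P2ry12 lie inside Med12l, which is on the opposite strand, and since the use of strand in counting is not given in the sources used here, reads of such pairs cannot be told apart.

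Of the 34 genes 2 were called lower, against 0.964% of the 23020 genes tested, 0 higher, against 0.869%, and 0 at an FDR of 5%, against 0%. By limma 7 had an unadjusted p under 0.05, against 7.09% of all genes. Aif1 (7.15 against 9.22 TPM, -0.33 ± 0.12, adjusted p = 0.565, exact permutation p = 0.00901) had the next smallest p. Csf1r (-0.11 ± 0.07, adjusted p = 0.791), P2ry12 (-0.11 ± 0.09, adjusted p = 0.854), Trem2 (-0.23 ± 0.30, adjusted p = 0.92), Cd68 (-0.09 ± 0.12, adjusted p = 0.923), Spi1 (-0.10 ± 0.15, adjusted p = 0.93) and Tmem119 (-0.05 ± 0.08, adjusted p = 0.932) did not pass. C1qa (-0.0031 ± 0.079, adjusted p = 0.998), C1qb (0.01 ± 0.10, adjusted p = 0.997), C1qc (0.01 ± 0.10, adjusted p = 0.996) and Tyrobp (-0.01 ± 0.10, adjusted p = 0.99) had differences smaller than their error. Cx3cr1 had 0.09 ± 0.25 (adjusted p = 0.962), and -0.20 without Brd1+/- vehicle mouse 5, so its direction rests on that mouse.

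The median of the 34 was -0.12, against 0.01 over all genes, and 28 were negative and 6 positive (17.6%, against 54.4% of all genes). By role, 11 of 13 receptors and 5 of 5 adaptors were negative, with medians of -0.12 and -0.19, and the median of the C1q chains was 0.01. Trem2 spread widely in Brd1+/- IMN mice, from 2.95 to 18.4 TPM with a median of 11.6 TPM. In the limma fit of all 4 groups together neither Hpgds (adjusted p = 0.854) nor P2ry13 (adjusted p = 0.856) passed, and with the mouse number as a replicate block P2ry13 did not (adjusted p = 0.512).

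**Figure D3:**
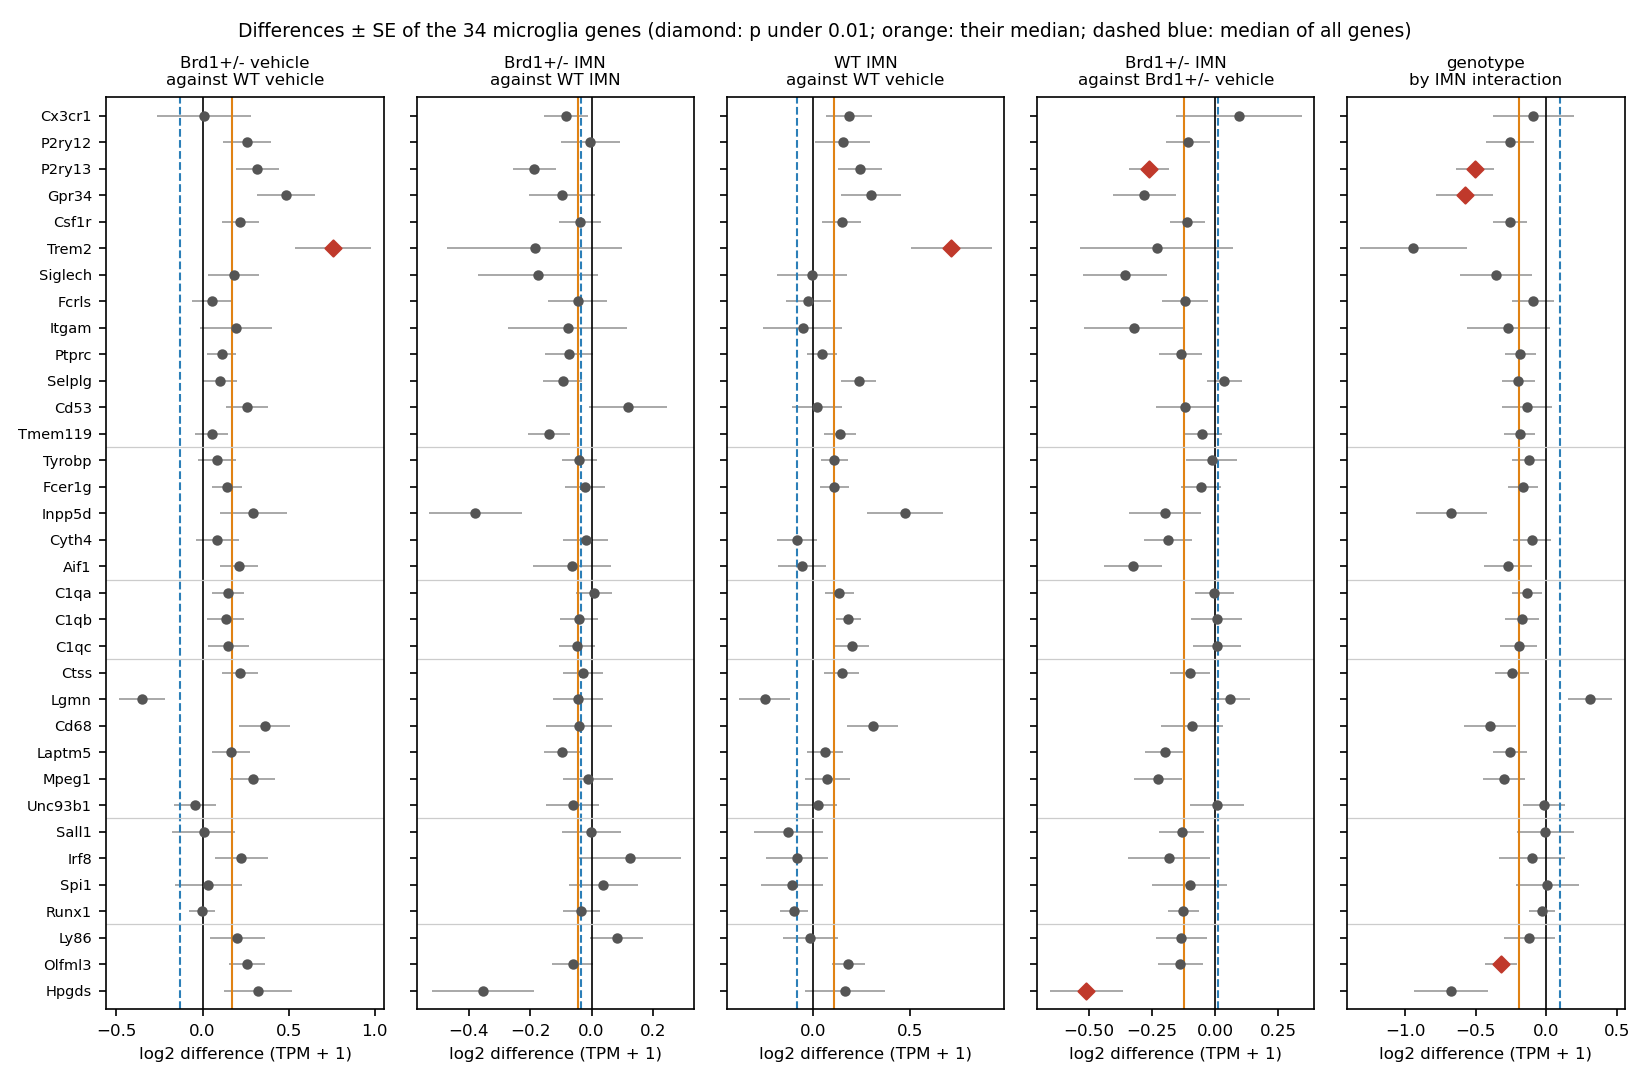
Log2 differences ± SE of the 34 microglia genes, ordered by role (surface receptors at the top, then adaptors, C1q chains, lysosomal genes, transcription factors and secreted genes), in the 4 comparisons and the interaction, with diamonds for p under 0.01 and lines for the median of the 34 (orange) and of all genes (dashed blue). The medians of the microglia genes lie to the right of those of all genes in both comparisons that start from WT vehicle mice (0.17 against -0.13, 0.11 against -0.08), and to the left in the interaction (-0.19 against 0.09).

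The effect of IMN was then compared between the genotypes by an interaction over all 31 mice, as the IMN difference in Brd1+/- minus that in WT mice. It draws on the same mice as the comparisons above. Of the 34 members 3 had a more negative effect in Brd1+/- mice at p under 0.01, against 0.78% of the 25394 genes tested, 0 a more positive one, against 2.97%, and 0 passed an FDR of 5%, against 0%. By limma 10 had an unadjusted p under 0.05, against 16.2% of all genes. The 3 were P2ry13 (-0.50 ± 0.14), Gpr34 (-0.58 ± 0.20) and Olfml3 (-0.32 ± 0.11), each with an adjusted p of 0.261.

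In all 3 the effects of IMN had opposite signs. P2ry13 had 0.24 in WT and -0.26 in Brd1+/- mice. Gpr34, with a lowest, median and highest value of 3.51, 7.80 and 9.96 TPM in WT vehicle and 7.06, 9.11 and 9.86 TPM in WT IMN mice, had 7.46, 10.1 and 12.4 TPM in Brd1+/- vehicle and 5.24, 8.68 and 9.79 TPM in Brd1+/- IMN mice. Olfml3 had medians of 6.92, 7.94, 7.99 and 7.46 TPM in WT vehicle, WT IMN, Brd1+/- vehicle and Brd1+/- IMN mice. For both genes the lowest median was that of WT vehicle mice and the highest that of Brd1+/- vehicle mice, and the ranges of the groups overlapped. Gpr34 lies inside Cask on the opposite strand of chromosome X.

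Trem2 (-0.94 ± 0.38, adjusted p = 0.263) and Cd68 (-0.40 ± 0.18, adjusted p = 0.288) did not pass, nor did Csf1r (-0.26 ± 0.12, adjusted p = 0.3), Tmem119 (-0.19 ± 0.11, adjusted p = 0.377), Aif1 (-0.27 ± 0.17, adjusted p = 0.415), P2ry12 (-0.26 ± 0.17, adjusted p = 0.443) or C1qc (-0.20 ± 0.13, adjusted p = 0.449). C1qb (-0.18 ± 0.12, adjusted p = 0.461), C1qa (-0.14 ± 0.11, adjusted p = 0.51), Tyrobp (-0.13 ± 0.12, adjusted p = 0.623), Cx3cr1 (-0.09 ± 0.28, adjusted p = 0.898) and Spi1 (0.0046 ± 0.22, adjusted p = 0.995) had larger p. The median of the 34 was -0.19, against 0.09 over all genes, and 32 of 34 were negative, where 67.2% of all genes were positive. All 13 receptors, 5 adaptors, 3 C1q chains and 3 secreted genes were negative. With median-of-ratios scaling 11 members were called, all more negative in Brd1+/- mice, against 1.55% of all genes, and with cortical marker levels as a covariate P2ry13 alone passed (-0.44 ± 0.14, adjusted p = 0.831, limma). Without WT vehicle mice 2 and 7 the called members were P2ry13, Gpr34 and Hpgds, all more negative, against 0.485% of all genes, and Olfml3 had adjusted p = 0.483 (limma).

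**Figure D4:**
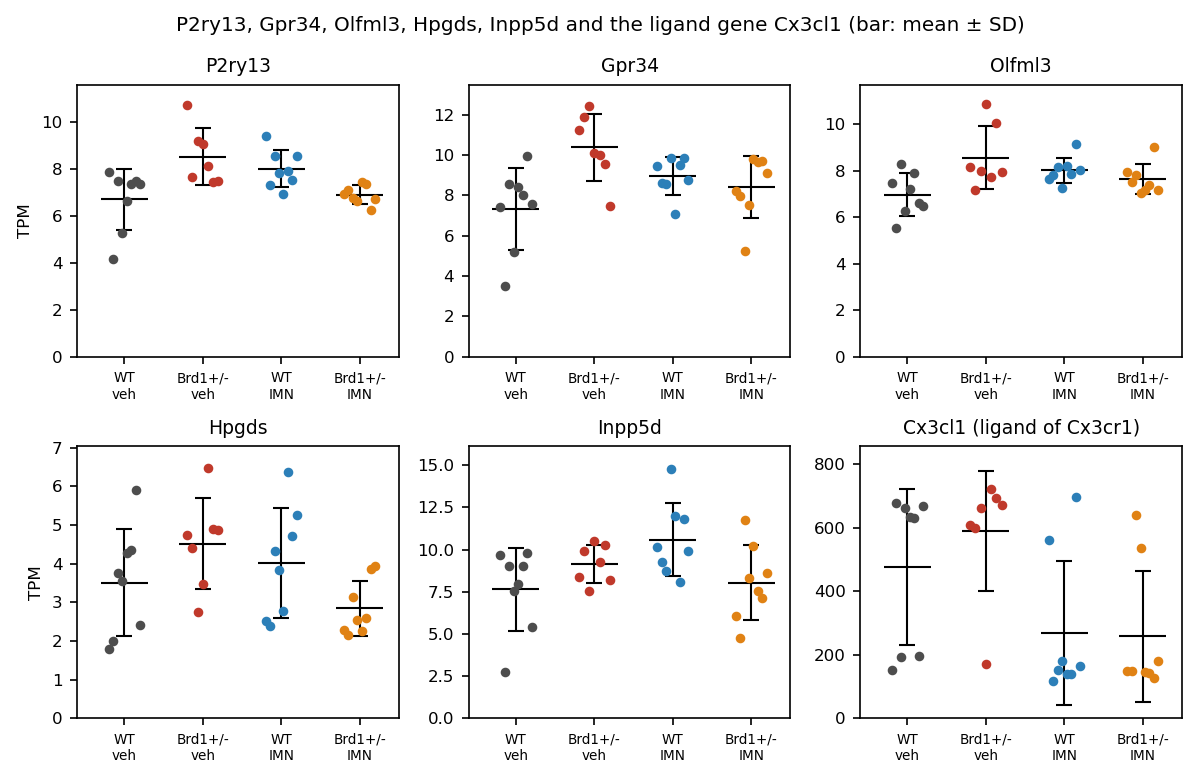
TPM (vertical axes, each from 0) of P2ry13, Gpr34, Olfml3, Hpgds, Inpp5d and the ligand gene Cx3cl1 in each of 31 mice by group (veh, vehicle), with bars for the mean and SD. All Brd1+/- IMN mice lie at 7.43 TPM or below in P2ry13, and no mouse has a Cx3cl1 value between 194.8 and 536.7 TPM.

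Ligands that act on microglia were examined as a list of 8 genes, called like the members at p under 0.01, and none of them passed an FDR of 5%. Cx3cl1, the fractalkine gene, fell into high and low values in every group, with 15 of 31 mice at 536.7 TPM or above and 16 at 194.8 TPM or below. High values were found in 5 of 8 WT vehicle, 6 of 7 Brd1+/- vehicle, 2 of 8 WT IMN and 2 of 8 Brd1+/- IMN mice, and the group medians were 632.9, 662.3, 158.6 and 148.9 TPM. Cx3cl1 fell by 1.37 ± 0.39 on the log2 scale from vehicle to IMN in Brd1+/- mice (adjusted p = 0.416, limma) and had -0.92 ± 0.45 in WT mice (adjusted p = 0.226). Its receptor gene Cx3cr1 had medians of 16.9, 20.004, 18.1 and 17.4 TPM in the same order of groups.

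Cd200, which encodes a neuronal surface protein that restrains microglia, was lower in Brd1+/- than WT vehicle mice (35.6 ± 5.36 against 58.6 ± 18.3 TPM, SD, with a log2 fold change of -0.65 ± 0.19, adjusted p = 0.0579, limma). It ranged from 30.5 to 83.9 TPM in WT vehicle mice. Cortical neuron markers had a median of -2.03 in the same comparison, and the part of that tissue difference in the Cd200 value was not tested. No other of the 8 ligand genes was called in any comparison, and Csf1 and Il34, the ligands of CSF1R, were among them. Of all genes, 12.1% were called lower in Brd1+/- vehicle against WT vehicle mice and 0.964% after IMN in Brd1+/- mice. Csf1 had 0.55 ± 0.23 (adjusted p = 0.653) after IMN in Brd1+/- mice.

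A further list of 30 homeostatic and signaling genes of microglia, of which 29 were tested, had 0 genes called at p under 0.01 in each comparison and in the interaction, where 13.6%, 0.703%, 6.95%, 1.83% and 3.74% of all genes were called in either direction, in the order above. Its median was 0.07 for Brd1+/- against WT under vehicle, with 19 of 29 positive (27.2% of all genes), and 0.12 for WT IMN against WT vehicle, with 19 of 29 positive (32.5% of all genes). Under IMN the genotypes had a median of -0.14, with 2 of 29 positive (36.7% of all genes), and the interaction had -0.20, with 8 of 29 positive (67.2% of all genes). The smallest p were those of the integrin gene Itgb2 (0.40 ± 0.15, adjusted p = 0.0901) in the first comparison, Bin2 (-0.29 ± 0.11, adjusted p = 0.998) under IMN, the transcription factor gene Ikzf1 (0.39 ± 0.14, adjusted p = 0.148) in WT mice after IMN, and the kinase gene Lyn (-0.47 ± 0.18, adjusted p = 0.261) in the interaction.

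Genes of activated microglia were called in both directions at p under 0.01. Of 21 listed, 15 were tested for Brd1+/- against WT under vehicle, with 3 positive, 12 negative and a median of -0.16, where 27.2% of all genes were positive with a median of -0.13. The shares of all genes called were those given above (1.47% higher and 12.1% lower under vehicle). Lpl, the lipoprotein lipase gene, was higher (1.26 ± 0.42, adjusted p = 0.0702) and Gpnmb lower (0.098 against 0.75 TPM, -0.61 ± 0.17, adjusted p = 0.0556). In WT mice after IMN the protease gene Ctsb fell by 0.33 ± 0.10 (adjusted p = 0.141), where 5.6% of all genes were called lower, and in Brd1+/- mice Ch25h, a cholesterol hydroxylase gene, rose by 0.38 ± 0.10 (adjusted p = 0.37), where 0.869% were called higher. No gene of this list passed an FDR of 5% by limma. These genes are also expressed by other cells of the tissue.

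Inflammatory and interferon genes, 14 of 20 tested, had 0 called for genotype under vehicle (the smallest p was that of Ptgs2, -1.07 ± 0.38, adjusted p = 0.0798), 0 under IMN, 0 in WT mice after IMN and 1 in Brd1+/- mice after IMN, Nfkbia, an inhibitor of NF-kB, which was higher (0.48 ± 0.14, adjusted p = 0.441, limma). The shares of all genes called higher and lower in these comparisons were 1.47% and 12.1%, 0.189% and 0.514%, 1.35% and 5.6%, and 0.869% and 0.964%.

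Macrophages of the brain borders share many genes with microglia, so their markers were set beside the results. The sum of 13 border macrophage markers ranged from 7.71 to 15.7 TPM in WT vehicle, 15.3 to 17.9 in Brd1+/- vehicle, 13.4 to 20.8 in WT IMN and 12.6 to 20.5 TPM in Brd1+/- IMN mice, and H2-Aa was at 0 in all WT vehicle mice. For Brd1+/- against WT under vehicle 9 of 11 tested markers were positive, and Cd163, a scavenger receptor gene, was higher (4.19 against 2.23 TPM, 0.84 ± 0.28, adjusted p = 0.0681). Of all genes in that comparison 27.2% were positive, 1.47% called higher and 12.1% lower. In WT mice after IMN 9 of 10 were positive, with Cd163 (0.88 ± 0.27, adjusted p = 0.141) and Lyve1 (0.32 ± 0.10, adjusted p = 0.141) higher and Pf4 (-0.50 ± 0.16, adjusted p = 0.141, limma) lower. Lyve1 had means of 0.23 TPM in WT vehicle and 0.55 TPM in WT IMN mice. Pf4 had 0.59 and 0.096 TPM, with a median of 0 after IMN, so its difference was read near the floor. Of all genes 32.5% were positive, 1.35% called higher and 5.6% lower. None of these list genes passed an FDR of 5% by limma. Under IMN 2 of 10 tested markers were positive between the genotypes (median -0.09), against 36.7% of all genes. After IMN in Brd1+/- mice 5 of 11 were positive (-0.01), against 54.4%. In the interaction 2 of 12 were positive (-0.26), against 67.2% of all genes, whose median was 0.09. The part of border macrophages in the Trem2 and C1q values was not tested.

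Markers of blood myeloid cells were low in most mice. Of 10 markers 0 to 2 were above the filter, the median of their sum was 0.17 to 0.55 TPM by group with highest values of 14.3 TPM in WT vehicle and 16.8 TPM in WT IMN mice, and the neutrophil genes Ngp and Camp were at 0 in every mouse. Cortical neuron markers were negative in 10 of 10 for Brd1+/- against WT under vehicle (median -2.03) and for WT IMN against WT vehicle (-2.08), where striatal neuron markers were positive in 10 of 10 (1.63 and 1.48). Oligodendrocyte markers were positive in 10 of 10 for Brd1+/- IMN against Brd1+/- vehicle (median 0.53) and in the interaction (0.57). Endothelial markers were positive in 6 of 10 for WT IMN against WT vehicle (median 0.061) and in 3 of 10 in the interaction (-0.12). Astrocyte markers were positive in 0 of 10 (-0.16) and 8 of 10 (0.13) in the same order. The part of these other cell types in the microglia values was not tested beyond the fits already named. With cortical marker levels as a covariate the median of the microglia genes was 0.14 for Brd1+/- against WT under vehicle. It was 0.09 for WT IMN against WT vehicle and -0.15 in the interaction.

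**Figure D5:**
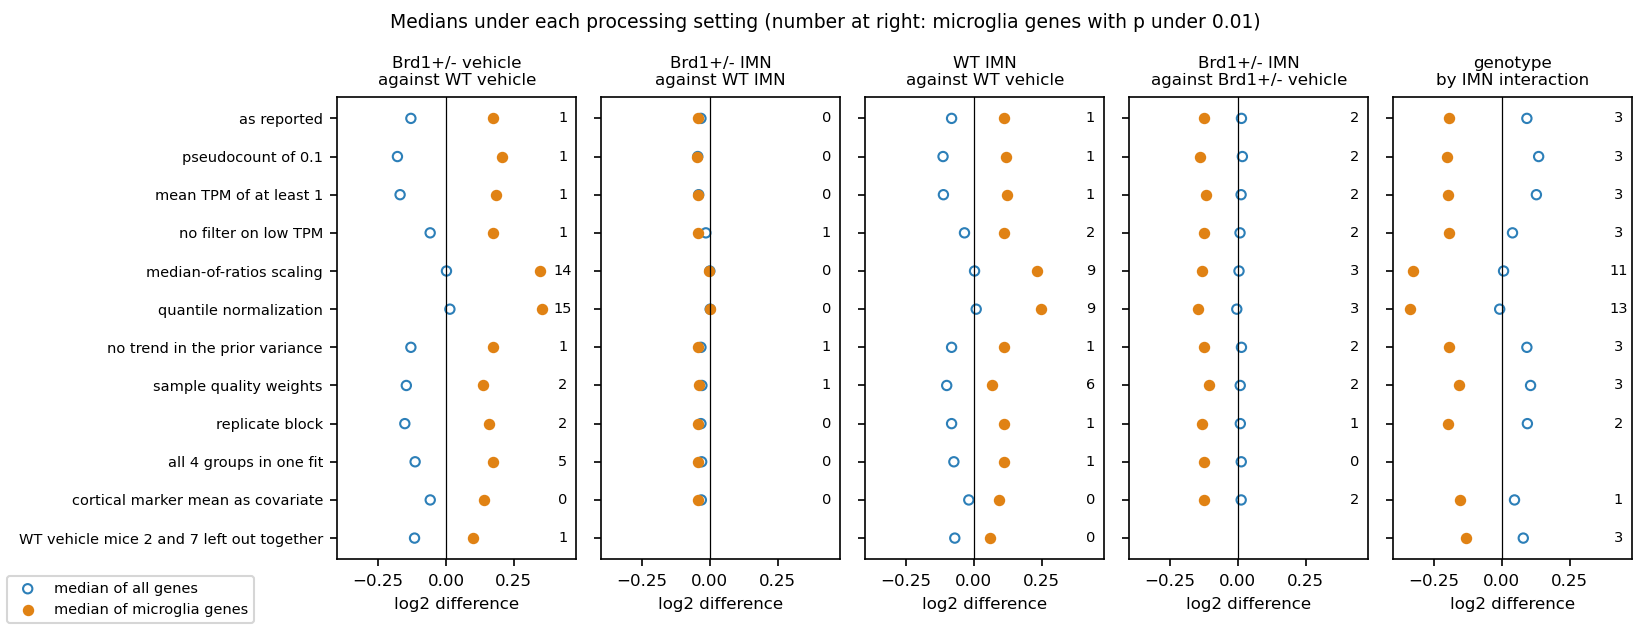
Median log2 difference of the 34 microglia genes (orange) and of all genes (open blue) in the 4 comparisons and the interaction under each processing setting, with the number of microglia genes at p under 0.01 at the right of each panel. Median-of-ratios scaling and quantile normalization move both medians in the same direction and raise the count from 1 to 14 and 15 in Brd1+/- vehicle against WT vehicle, and from 3 to 11 and 13 in the interaction.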

How the data were processed

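RNA from the CPu of 31 mice, each with its own library, was sequenced as single-end reads. Per the submitters' processing notes the tools were FastQC, Trimmomatic, HISAT2 2.1.0 and StringTie 1.3.4, with the mouse build GRCm38. The deposited table holds TPM, computed by the authors per gene and mouse, with sums of 999787 to 999918 per mouse over 52636 genes, of which 52403 carry a symbol. TPM keep no read depth, so counting error is unknown, and the count test of the study could not be run. TPM fix the sum of each mouse, so a rise in abundant genes lowers the values of the rest.

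Groups followed the labels. Log2(TPM + 1) values of genes above 0.1 TPM in at least 7 mice of a fit were tested with limma 3.58.1 in R 4.3.3 (empirical Bayes, trend in the prior variance, two-sided), each pair of groups alone and the interaction over all 4 groups. Genes were called at p under 0.01, the threshold of the study, and at a Benjamini-Hochberg FDR of 5% over all genes tested. Fold changes are on the log2(TPM + 1) scale, which understates those of low genes. Single genes were also tested by exact permutation of mice, with a smallest possible p of 0.0001554. The other settings were a pseudocount of 0.1, no filter on low TPM, a mean of at least 1 TPM, median-of-ratios and quantile scaling, a prior variance with no trend, quality weights per mouse, a replicate block by mouse number, all 4 groups in one fit, the cortical marker mean as a covariate and each mouse left out. Leaving out WT vehicle mice 2 and 7 together was chosen after seeing the data.

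The members and the further gene lists were chosen with earlier results of these data known. All members are named with their levels. Tests are given for 12 core genes, for members at p under 0.01, and for the 3 smallest p where fewer passed. They are also given for up to 3 genes of smallest p in the ligand, homeostatic, activated, inflammatory and border macrophage lists. Other members given with a test were chosen after their values were seen. The remaining lists have no gene tests here. Among those not described above, 1 other complement gene was called higher in each comparison with WT vehicle mice. For Brd1+/- against WT, 1 lymphocyte marker was lower under vehicle and 1 erythrocyte marker higher under IMN. In WT mice after IMN 2 erythrocyte markers were lower and 1 choroid plexus marker higher. In simulated data for Brd1+/- against WT under vehicle (23200 genes, 200 changed), a log2 change of 0.5 was called at p under 0.01 in 143 and at the FDR in 55, and a change of 1 in 190 and 168. No column was left unused, and no 2 mice had identical values.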

Additional observations from a re-analysis of the deposited data

Results flagged for a closer look

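Over 136 sets of values (34 genes in 4 groups), 22 had a highest or lowest mouse farther from the rest of its group than the 95% critical value of Dixon's test allows, where chance marks about 1 in 20. WT vehicle mouse 2 was lowest in 4 of them, in Ctss (35.9 TPM), Tyrobp (23.2 TPM), Ly86 (6.42 TPM) and Cd53 (3.55 TPM), and it is also the mouse with the lowest striatal neuron markers. Brd1+/- vehicle mouse 6 was highest in 4, in C1qb (118.7 TPM), C1qc (85.8 TPM), Tyrobp (48.1 TPM) and Selplg (38.7 TPM). Brd1+/- vehicle mouse 5 had 4.19 TPM of Cx3cr1, where the other 6 mice of its group had 18.8 to 21.2 TPM.

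Itgam had 1 high mouse in each group, at 6.06 TPM in WT vehicle mouse 3, 6.99 TPM in Brd1+/- vehicle mouse 7, 6.54 TPM in WT IMN mouse 5 and 5.43 TPM in Brd1+/- IMN mouse 5. The annotated gene Gm49368 overlaps exons of Itgam on the same strand, and the part of that overlap was not tested. Gpr34 was low in WT IMN mouse 5 (7.06 TPM) and Brd1+/- IMN mouse 3 (5.24 TPM), and Cd53 in WT IMN mouse 3 (3.67 TPM). Single high mice were WT IMN mouse 4 in Ctss (65.6 TPM), WT vehicle mouse 6 in Fcer1g (29.1 TPM), Brd1+/- IMN mouse 7 in Ly86 (15.5 TPM), Brd1+/- IMN mouse 2 in Sall1 (8.55 TPM) and WT IMN mouse 2 in Irf8 (6.49 TPM). Aif1 was low in Brd1+/- IMN mouse 4 (4.79 TPM).

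In 3 genes the effect of IMN differed between the genotypes by the interaction term at p under 0.01, with an effect in Brd1+/- minus that in WT mice of -0.50 for P2ry13, -0.58 for Gpr34 and -0.32 for Olfml3 (log2). None passed the correction over all genes (adjusted p = 0.261 each, limma), and all rest in part on the WT vehicle mice.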

How the results depend on the processing

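Depth is unknown for TPM, and every comparison with WT vehicle mice carries the difference in cortical and striatal markers between mice. For Brd1+/- against WT under vehicle the number of the 34 members at p under 0.01 was 1, against 13.6% of all genes. In brackets is the share of all genes called under the same setting. The count was 14 (9.2%) with median-of-ratios scaling, 15 (9.53%) with quantile scaling, 2 (26.5%) with quality weights (Trem2 higher and Lgmn lower), 2 (17.7%) with the replicate block, 5 (19.7%) with all 4 groups in one fit (4 higher and Lgmn lower) and 0 (2.33%) with the cortical covariate, and the median of the members was 0.35 under both scalings. For WT IMN against WT vehicle the count of 1 (6.95%) became 9 under both scalings (5.98% and 5.8%), 6 (20.3%) with weights (5 higher and Lgmn lower), 2 (5.01%) with no filter, and 0 with the cortical covariate (1.43%) or without WT vehicle mice 2 and 7 (2.71%), and quantile scaling gave a median of 0.25. Under IMN the count of 0 (0.703%) became 1 with no filter (0.69%), no trend (0.707%) or weights (0.985%). For Brd1+/- IMN against vehicle the count of 2 (1.83%) became 1 (2.15%) with the replicate block and 0 (1.17%) with all 4 groups in one fit. For the interaction the count of 3 (3.74%) became 11 (3.17%) and 13 (3.39%) under the scalings, with medians of -0.33 and -0.34, and 1 (1.04%) with the cortical covariate. With the replicate block it was 2 (4.28%), P2ry13 and Hpgds, so Gpr34 and Olfml3 were not called. With weights it was 3 (13.6%), P2ry13 and Gpr34 more negative in Brd1+/- mice and Lgmn more positive. Without WT vehicle mice 2 and 7 it was 3 (1.62%). At an FDR of 5%, members passed for Brd1+/- against WT under vehicle with weights (4, against 29.5% of all genes), the replicate block (2, 15.4%), all 4 groups (5, 19.5%) and a mean of 1 TPM (1, 10.5%), for WT IMN against vehicle with weights (6, 20.6%), and for the interaction with weights (2, 10.3%). With single mice left out, WT vehicle mice 6 and 8 decide the counts over all genes, as given in the report. The causes were not tested.

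With each mouse left out in turn the counts ranged from 1 to 3, 0 to 1, 1 to 3, 1 to 3 and 1 to 5 in the order of the report. Among mice that moved a count by over 1.5 times, the first comparison had 3 without WT vehicle mouse 6 and 2 without WT vehicle mouse 8 (Lgmn lower among them in both) and 2 without WT vehicle mouse 7 or Brd1+/- vehicle mouse 7; the second had 1 without WT IMN mouse 5 or Brd1+/- IMN mouse 3; the third had 3 without WT vehicle mouse 1 or 6 and 2 without WT IMN mouse 5; the fourth had 1 without Brd1+/- vehicle mouse 1 or 4 or Brd1+/- IMN mouse 7; the interaction had 5 without WT vehicle mouse 6 and 1 without WT vehicle mouse 4, WT IMN mouse 7 or Brd1+/- IMN mouse 4. Calls over all genes at p under 0.01 moved as well. The first comparison had 628 higher and 3948 lower of 22955 genes without WT vehicle mouse 6. It had 629 and 4525 of 22991 without mouse 8, and 277 and 1936 of 22915 without mouse 7. With all mice it had 342 and 2811 of 23200. The interaction had 1884 more positive and 465 more negative of 25304 without WT vehicle mouse 6, against 753 and 198 of 25394. Trem2 passed in 15 of 15 and 16 of 16 of the fits with a mouse left out, Hpgds in 15 of 15, P2ry13 in 11 of 15 and, in the interaction, P2ry13 in 31 of 31, Gpr34 in 21 and Olfml3 in 14.

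Same-numbered mice did not deviate together (median r of 0.0038, -0.00014, -0.029 and 0.040 in the 4 comparisons, with 0 of 7, 2 of 8, 2 of 8 and 3 of 7 pairs above 0.1), and in Brd1+/- IMN against vehicle 3 of 7 mice correlated best with their own number. The numbers were not taken to pair the mice, and the replicate block above is given for completeness.

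Direction changed in genes that were not called. For Brd1+/- against WT under vehicle, Cx3cr1 had -0.0057 with a pseudocount of 0.1, -0.17 with weights, -0.015 with the replicate block, -0.035 with the cortical covariate, -0.071 without WT vehicle mice 2 and 7 and -0.089 to 0.297 with a mouse left out; Spi1 had -0.045, -0.11 and -0.063 to 0.137 under the last 3, Tmem119 -0.0104 without mice 2 and 7 and Tyrobp -0.011 to 0.121 with a mouse left out. Under IMN, median-of-ratios and quantile scaling gave P2ry12 0.038 and 0.045, Csf1r 0.00595 and 0.0093, Tyrobp 0.0032 and 0.0092, C1qb 0.002996 and 0.0026, Cd68 0.0021 and 0.0077, and quantile scaling C1qc 0.0026; weights gave Aif1 0.00014; with a mouse left out P2ry12 ranged from -0.0498 to 0.035, Trem2 from -0.315 to 0.013, Aif1 from -0.118 to 0.011, Cd68 from -0.0963 to 0.0097, C1qa from -0.014 to 0.0429 and Spi1 from -0.0296 to 0.0818. For WT IMN against vehicle, Aif1 had 0.058, 0.078 and 0.099 under the scalings and the covariate, and -0.128 to 0.0015 with a mouse left out. For Brd1+/- IMN against vehicle, a mouse left out gave Cx3cr1 -0.20 to 0.153, Tyrobp -0.0499 to 0.082, C1qa -0.0335 to 0.0503, C1qb -0.0296 to 0.101 and C1qc -0.0227 to 0.0955, weights Tyrobp 0.015 and C1qa 0.017, quantile scaling C1qa 0.00082, median-of-ratios scaling C1qb -0.0072 and C1qc -0.0067, and the replicate block C1qc -0.0011. In the interaction Cx3cr1 had 0.0638 with weights and -0.382 to 0.0046 with a mouse left out, and Spi1 -0.098 and -0.13 under the scalings, -0.0209 with the replicate block and -0.10 to 0.102 with a mouse left out.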
